A study of Mus musculus with 12 samples.

Results

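The genes described here were the MHC class II genes of the mouse and their activator. They were chosen by name, as the rows for H2-Aa, H2-Ab1, H2-Eb1, H2-DMa, H2-DMb1, H2-Oa, H2-Ob, Cd74 and Ciita, and were 9 of the 19564 genes listed in either of 2 gene count tables. All 9 were listed in the table of the dim cells. In the table of the bright cells 8 were listed, and H2-Oa was absent from it.

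The study sorted tdTomato (tdT) positive cells from the glomeruli of mice in which Cre driven by the Tek promoter switches on a ROSA26 tdT reporter, and called them glomerular endothelial cells (GEC). The reporter stays on in a cell once Tek-Cre has been active in it. A dim and a bright subpopulation were sorted from each of 3 wild type (WT) and 3 Alport syndrome (AS) mice, which gave 12 RNA-seq libraries in 4 groups of 3, named WT-dim, WT-bright, AS-dim and AS-bright. The AS mice were Col4a5 -/-, a model of the hereditary kidney disease in which a collagen IV chain of the glomerular basement membrane is lost, and all mice were C57BL/6, carried the reporter, were sex-matched and were 4 months old. The libraries held 11440169 to 15074909 gene counts each, without spike-ins.

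The sorted cells were checked against markers before the class II genes were read. The 6 pan-leukocyte markers summed to 7147 to 11895 CPM (counts scaled to a common library size) in the WT-dim and 12021 to 12597 CPM in the AS-dim libraries, against 72.4 to 116 CPM in WT-bright and 138 to 167 CPM in AS-bright. The 14 endothelial markers, all of them detected in every library, summed to 839 to 1588 CPM in WT-dim and 248 to 337 CPM in AS-dim, against 12322 to 18625 CPM in WT-bright and 17451 to 19924 CPM in AS-bright. The dim libraries, labelled GEC, therefore held more pan-leukocyte than endothelial marker counts in each of the 6 mice. Tek itself, which encodes an endothelial receptor, stood at 10.5 to 20.0 CPM in WT-dim and 2.31 to 3.04 CPM in AS-dim, and was higher in the bright cells, at 137 to 263 and 243 to 256 CPM, by 3.67 (SE 0.36) in WT and 6.58 (SE 0.22) in AS on the log2 scale. Col4a5 stood at 1.35 to 3.60 CPM in AS-dim against 37.7 to 74.3 CPM in WT-dim, in the direction of the labels, but at 3.05 to 6.66 CPM in AS-bright against 4.76 to 10.1 CPM in WT-bright, where the genotypes overlapped and the level gave no check of the label.

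MHC class II molecules present peptides from outside the cell to CD4+ T cells, and they are best known from B cells, dendritic cells and macrophages, although endothelium can be induced to make them. The alpha and beta chains meet the invariant chain, encoded by Cd74, in the endoplasmic reticulum. In the endosome H2-DM exchanges the remnant of the invariant chain for peptide, and H2-O holds H2-DM back. Ciita is the transactivator of class II genes, and it docks on a complex of RFX, CREB and NF-Y proteins bound to the X and Y boxes of their promoters. C57BL/6 mice carry the H2-b haplotype, in which the I-E alpha chain is not made, so H2-Eb1 encodes a beta chain without its partner.

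In the GRCm38 build the H2 members lay on chromosome 17, with H2-Oa at 34092340 to 34095234, H2-DMa at 34119541 to 34139101, H2-DMb1 at 34153072 to 34160230, H2-Ob at 34238903 to 34254414, H2-Ab1 at 34257689 to 34269419 and H2-Eb1 at 34305867 to 34316674, all on the plus strand, and H2-Aa at 34282744 to 34287823 on the minus strand. Ciita lay on chromosome 16 at 10480059 to 10528418, on the plus strand. All 9 members were annotated as protein-coding. H2-Eb1 overlaps the antisense gene Gm20513, H2-Oa the antisense gene BC051537 and Ciita the gene Dexi, each on the opposite strand, and H2-DMa overlaps Brd2 on the opposite strand and CR974462.3 on its own. Which strand was counted was not given in the sources used here, so the counts of these 4 members may include their partners. H2-DMb1 has a near-identical copy, H2-DMb2, and the division of counts between these copies is uncertain.

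The promoters were searched for the element through which Ciita is known to act, and the pair of motifs searched was found in 2 of the 6 members read. RefSeq windows of GRCm38.p6, from 250 bases before to 50 bases after a transcription start, were matched by symbol and read here for 6 of the 9 members. They were searched on both strands for ACNGATG, a part of the X box, and ATTGG, the core of the Y box, and for ATTGG starting 25 to 35 bases after the start of ACNGATG on the same strand, a spacing at which the motifs cannot overlap. ACNGATG was found in 9.85%, ATTGG in 37.4% and the spaced pair in 0.0974% of all 32851 windows (32 windows). The pair was found in H2-Eb1, with a spacing of 29 bases, and in H2-DMb1, with a spacing of 30 bases. H2-Aa, H2-Oa and H2-Ob held ATTGG 48, 43 and 57 bases before the start without the pair as searched. The windows of H2-Aa and H2-Oa also held ACNGATG, searched on both strands, and that of H2-Ob did not. Only the exact letters were searched, so a near match was not counted. H2-DMa had 2 windows, of which one held neither motif and the other held ATTGG 198 bases before the start, without ACNGATG. The 5 stretches of the other members are printed because they are the members' proximal promoters around the Y box, each read 5′ to 3′ on the strand of its gene and lying before the RefSeq start. In capitals are the spaced pair in H2-Eb1 and H2-DMb1 and ATTGG in the others. The RefSeq start lay 119 bases inside the gene as given above for H2-DMb1, 39 bases inside for H2-Oa and 2 bases inside for H2-Ob, so the H2-DMb1 stretch and the end of the H2-Oa stretch fall within those genes, while for H2-DMa the starts lay 3291 and 5977 bases inside:
H2-Eb1, chr17:34305759-34305832, plus: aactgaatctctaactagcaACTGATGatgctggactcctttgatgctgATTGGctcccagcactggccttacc
H2-DMb1, chr17:34153080-34153154, plus: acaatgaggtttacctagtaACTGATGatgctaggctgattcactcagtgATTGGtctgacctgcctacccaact
H2-Aa, chr17:34287847-34287921, minus: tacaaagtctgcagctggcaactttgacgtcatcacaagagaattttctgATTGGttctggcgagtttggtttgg
H2-Oa, chr17:34092286-34092360, plus: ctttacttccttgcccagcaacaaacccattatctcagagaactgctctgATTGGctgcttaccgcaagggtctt
H2-Ob, chr17:34238798-34238872, plus: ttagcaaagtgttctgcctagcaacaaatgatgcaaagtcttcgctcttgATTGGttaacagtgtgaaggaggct
A match is a description of the letters and not of a bound site.

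The first comparison asked how the class II genes differed between the bright and the dim cells of the same mice. Every member that could be tested was far lower in the bright cells of both genotypes. Cd74, the invariant chain (chromosome 18, 60803848 to 60812652, plus strand), had 11573, 14417 and 12956 counts in the WT-dim libraries and 138, 90 and 58 in the WT-bright libraries of the same mice. In AS it had 29973, 23239 and 29542 counts in the dim and 246, 278 and 173 in the bright libraries. No bright library came near a dim one, and the log2 fold change of bright over dim was -7.40 (SE 0.38, adjusted p = 3.23e-06) in WT and -7.05 (SE 0.25, adjusted p = 3.16e-08) in AS. Each adjusted p given here is from edgeR's quasi-likelihood fit to the whole table and was adjusted by the Benjamini-Hochberg method. In each mouse the bright level of Cd74 was 0.344 to 0.925% of the dim level.

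The peptide-binding chains were lower too. H2-Aa and H2-Ab1 encode the alpha and beta chains of I-A, the class II molecule of these mice. H2-Aa stood at 1004 ± 127 CPM in WT-dim and 6.24 ± 3.35 CPM in WT-bright (mean ± SD, n = 3, as for each group mean given here), and at 1789 ± 158 CPM in AS-dim and 22.1 ± 4.47 CPM in AS-bright. Its log2 fold change of bright over dim was -7.23 (SE 0.44) in WT and -6.32 (SE 0.24) in AS. H2-Ab1 changed by -6.44 (SE 0.33) in WT and by -5.64 (SE 0.25) in AS, and H2-Eb1 by -6.66 (SE 0.41) in WT and by -6.16 (SE 0.26) in AS. The bright level of these 3 chains was between 0.356 and 2.21% of the dim level of the same mouse.

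The peptide editor and its inhibitor were also lower. H2-DMa, the alpha chain of H2-DM, stood at 68.9 ± 12.7 CPM in WT-dim and 1.19 ± 0.166 CPM in WT-bright, and at 142 ± 5.89 CPM in AS-dim and 3.22 ± 2.19 CPM in AS-bright. H2-DMb1, its beta chain, had 111, 309 and 225 counts in WT-dim and 9, 7 and 0 counts in WT-bright. H2-Ob, the beta chain of the inhibitor H2-O, had bright levels of 1.77 to 6.20% of the dim level of the same mouse. Its log2 fold change of bright over dim was -4.50 (SE 0.42) in WT and -4.37 (SE 0.25) in AS, and its groups did not overlap.

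Ciita, the activator, was scarce throughout. It had 47, 22 and 35 counts in WT-dim and 111, 178 and 142 in AS-dim, and 1, 6 and 9 counts in WT-bright and 3, 8 and 13 in AS-bright. The bright counts were too low for a share within a mouse to be read. The fitted log2 fold change of bright over dim was -2.98 (SE 0.68) in WT and -4.31 (SE 0.51) in AS. It is given as a description, since Ciita was in this test through its dim counts alone.

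In all, 8 of the 8 members tested were lower in the bright cells and passed an adjusted p of 0.05 in WT, where 11.5% of all genes tested were lower and passed, and 8 of 8 in AS, where 26.5% did. The 3 bright and the 3 dim libraries did not overlap for any of the 8, against 21.9% of all genes not overlapping and lower in WT and 30.9% in AS. The median log2 fold change of the members was -6.10 in WT and -5.83 in AS, and that of all genes tested was -0.04 and 0.02. Ciita and H2-DMb1 entered this test through their dim counts alone, since they fell under the filter on low counts in the bright libraries, and so had to be lower. The other 6 members passed in both genotypes, with a median of -6.55 in WT and -5.90 in AS. Markers of other cells moved with them, as the 6 pan-leukocyte markers were all lower and passed in both genotypes, with a median of -7.35 in WT and -7.41 in AS, and the 14 endothelial markers were all higher and passed, with a median of 3.66 and 6.24. Ptprc, the common leukocyte antigen CD45, had 7957 to 19298 counts in the dim and 28 to 124 counts in the bright libraries. The part of these cells in the class II difference was not tested, and in bulk libraries fewer cells of a type and less RNA per cell cannot be told apart.

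**Figure D1:**
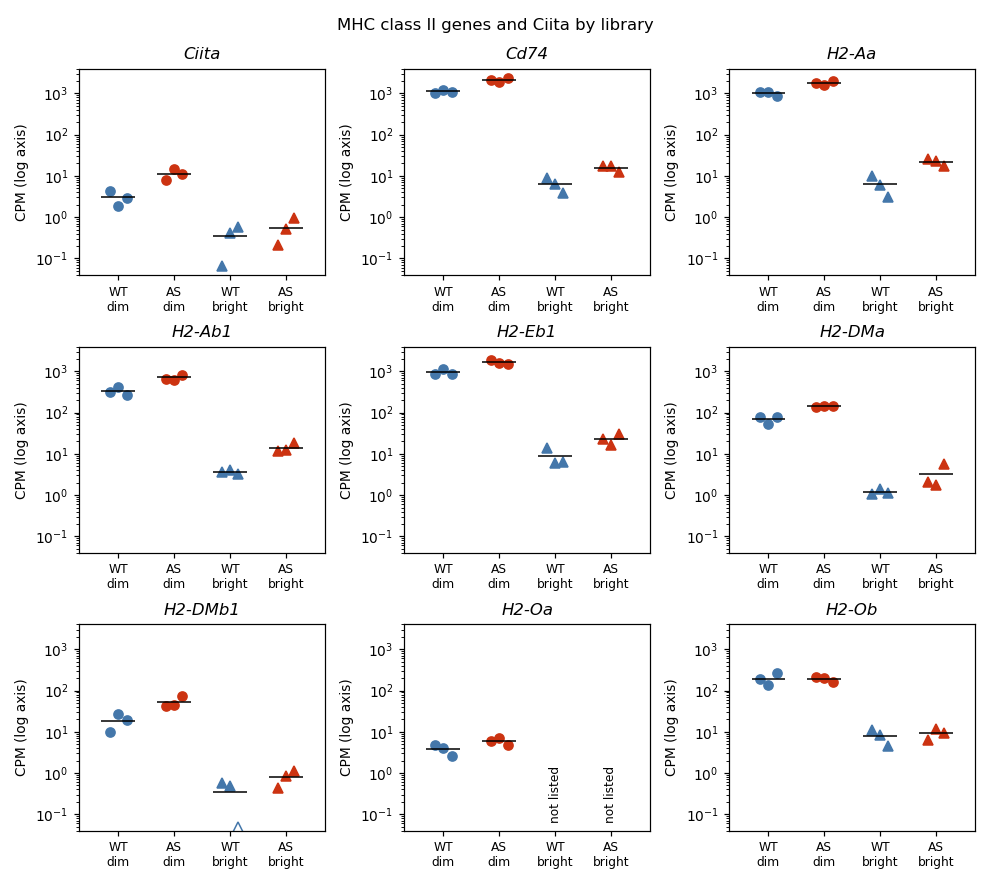
The CPM of each of the 9 genes in each library, on a log axis, with points for libraries, circles for dim and triangles for bright cells, blue for WT and red for AS, and a bar for the group mean. The bright triangles of the 8 genes listed in both tables lie below the dim circles, and the open triangle of H2-DMb1 marks a count of 0, drawn near the foot of the axis.

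**Figure D2:**
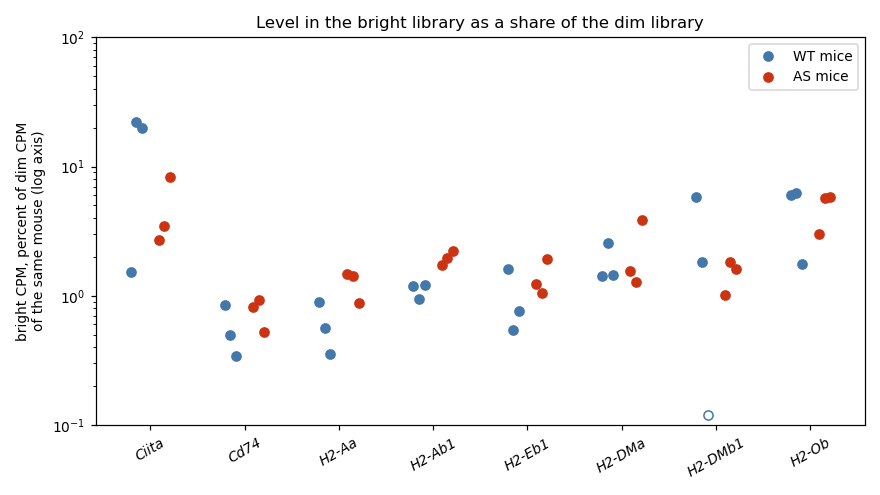
The CPM of the bright library as a percent of the dim library of the same mouse, on a log axis, with 1 point for each of the 3 WT (blue) and 3 AS (red) mice. Cd74 lies at 0.344 to 0.925%, a range that overlaps those of H2-Aa and H2-Eb1, the H2-DMb1 point with a count of 0 is open and drawn near the foot of the axis, and the Ciita points rest on 1 to 13 bright counts.

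The second comparison asked how the genes differed between AS and WT in the dim cells, where all but Ciita and H2-Oa had more than 100 counts in every library. Levels per kilobase of gene length gave the order of the members. In WT-dim H2-Eb1 was highest at 795 ± 136 CPM per kb, followed by H2-Aa at 306 ± 38.6, Cd74 at 281 ± 26.2, H2-Ab1 at 141 ± 35.8, H2-DMa at 31.2 ± 5.75, H2-Ob at 29.6 ± 9.82, H2-DMb1 at 8.78 ± 3.95, H2-Oa at 1.67 ± 0.499 and Ciita at 0.572 ± 0.219 CPM per kb. The libraries of H2-Aa and Cd74 overlapped, as did those of H2-DMa and H2-Ob, so these neighbours had no order beyond their spread. In AS-dim the order of the means was the same, with H2-Eb1 at 1392 ± 137 and Ciita at 2.14 ± 0.655 CPM per kb. There H2-DMa, at 64.2 ± 2.66 CPM per kb, lay clear of H2-Ob, at 29.2 ± 3.76, and it was H2-Ob that overlapped with H2-DMb1, at 25.1 ± 7.82 CPM per kb. The libraries of H2-Aa and Cd74, and of H2-Oa and Ciita, overlapped as well.

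Ciita showed the largest fitted difference of the members between the genotypes in the dim cells, with 4.20, 1.89 and 2.96 CPM in WT and 7.84, 14.8 and 11.3 CPM in AS. Each AS library lay above each WT library, and the log2 fold change of AS over WT was 1.89 (SE 0.48), but its adjusted p of 0.0495 lay at the threshold. Under edgeR's older, version 3 quasi-likelihood fit the same difference had an adjusted p of 0.069.

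The invariant chain and the I-A and I-E chains rose in the AS-dim cells. Cd74 stood at 1034, 1239 and 1097 CPM in WT-dim and 2118, 1926 and 2351 CPM in AS-dim, a log2 fold change of 0.91 (SE 0.16, adjusted p = 0.0217). H2-Aa stood at 1093, 1060 and 859 CPM in WT-dim and 1767, 1643 and 1958 CPM in AS-dim, and its log2 fold change was 0.82 (SE 0.17, adjusted p = 0.0278). For both the AS libraries lay above all WT libraries. H2-Ab1 had 311, 427 and 263 CPM in WT-dim and 664, 632 and 837 CPM in AS-dim, with a log2 fold change of 1.08 (SE 0.22, adjusted p = 0.0287). H2-Eb1 had 859, 1133 and 848 CPM in WT-dim and 1843, 1587 and 1539 CPM in AS-dim, with a log2 fold change of 0.79 (SE 0.18, adjusted p = 0.0341, or 0.051 under the version 3 fit). The differences of Cd74 and the 3 chains lay between 0.79 and 1.08 on the log2 scale.

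Of the chains of the editor H2-DM and of its inhibitor H2-O, 1 passed, and differences between them were not tested. H2-DMa had 76.4, 54.2 and 76.0 CPM in WT-dim and 137, 141 and 148 CPM in AS-dim, a log2 fold change of 1.03 (SE 0.21, adjusted p = 0.0273). H2-DMb1 had 9.92, 26.5 and 19.1 CPM in WT-dim and 41.7, 45.3 and 71.9 CPM in AS-dim, and although these did not overlap, the difference of 1.50 (SE 0.39) missed the threshold with an adjusted p of 0.0518. H2-Ob had 188, 132 and 261 CPM in WT-dim and 209, 202 and 163 CPM in AS-dim, with overlapping libraries and a log2 fold change of -0.03 (SE 0.26, adjusted p = 0.955), or 0.063 with library sizes alone, a scaling that moved the median of all genes by 0.081. H2-Oa, the partner of H2-Ob, had 4.91, 4.12 and 2.63 CPM in WT-dim and 5.94, 7.13 and 4.85 CPM in AS-dim, overlapping, with a log2 fold change of 0.61 (SE 0.44, adjusted p = 0.434). Set against H2-DMa in the same library, H2-Ob had 246, 244 and 343 counts per 100 H2-DMa counts in WT-dim and 153, 143 and 110 in AS-dim, so this ratio was lower in every AS-dim library. In the bright libraries it overlapped, at 418 to 1047 in WT and 164 to 646 in AS. The other member pairs read this way overlapped between the genotypes in the dim libraries, such as Cd74 per 100 H2-Aa counts, at 94.6 to 128 in WT and 117 to 120 in AS. How often other gene pairs separate was not tested.

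Of the 9 members, 6 were higher in AS-dim and passed, where 2.21% of all genes tested were higher and passed, and the libraries of 7 did not overlap, where 15.4% of all genes were higher without overlap. The median difference of the members was 0.91 and that of all genes tested -0.02 on the log2 scale. The count of members that passed was not stable. It was 4 under the version 3 fit. Leaving out 1 library at a time gave 0 to 5, with 0 without AS-dim replicate 1 or 3, 1 without AS-dim replicate 2, and 3 without WT-dim replicate 1 or 2. Of all genes tested 324 were higher and passed in the main fit and 130 under version 3. That number was 0 without AS-dim replicate 1 or 3, 49 without AS-dim replicate 2, and 113 and 121 without WT-dim replicates 1 and 2. Under the likelihood ratio test 2 members passed, where 354 of all genes were higher and passed. With the proximal tubule or the pan-leukocyte covariate 0 members passed, where 1 and 3 of all genes did. The direction of each member but H2-Ob was upward in AS under every alternative tried.

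Other markers moved with these differences in the dim cells. The 10 macrophage and monocyte markers summed to 2709 to 4636 CPM in WT-dim and 6460 to 8626 CPM in AS-dim, and 4 of the 10 were higher in AS and passed. The 10 proximal tubule markers summed to 1263 to 5900 CPM in WT-dim and 13.4 to 346 CPM in AS-dim, and 5 of the 10 were lower and passed. Of the 13 endothelial markers tested all were lower in AS-dim and 9 passed, with a median log2 fold change of -2.22. The 6 podocyte markers summed to 634 to 1239 CPM in WT-dim and 536 to 561 CPM in AS-dim, where 3 were lower and 1 was higher and passed, with a median of -1.80. The part of these cells in the class II difference was not tested. The 8 T cell markers summed to 209 to 282 CPM in WT-dim and 300 to 351 CPM in AS-dim, without overlap, and their median log2 fold change was 0.80, while that of the 6 pan-leukocyte markers was 0.57. None of either list passed edgeR's test, and 4 of 8 and 4 of 6 had an unadjusted p under 0.05, as did 26.3% of all genes. None of the 8 B cell markers passed edgeR's test, though 3 had an unadjusted p under 0.05, with sums of 616 to 1156 CPM in WT-dim and 690 to 1107 CPM in AS-dim. The 8 dendritic cell markers summed to 330 to 423 CPM in WT-dim and 540 to 620 CPM in AS-dim, with none past the threshold and 2 at an unadjusted p under 0.05, and Ptprc itself had 711, 852 and 1127 CPM in WT-dim and 1364, 1305 and 1443 CPM in AS-dim, a log2 fold change of 0.60 (SE 0.19, adjusted p = 0.091). Per Ptprc count, the WT-dim and AS-dim libraries overlapped for 7 of the 9 members, while of all genes tested 2.69% lay above in AS and 36.3% below without overlap when scaled this way. H2-Aa had 0.763 to 1.54 counts per Ptprc count in WT-dim and 1.26 to 1.36 in AS-dim. Cd74 lay above in AS, at 0.974 to 1.45 in WT-dim and 1.48 to 1.63 in AS-dim, and H2-Ob lay below, at 0.155491 to 0.264 in WT-dim and 0.113 to 0.154799 in AS-dim, in each case by a gap smaller than the spread of the WT libraries.

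**Figure D3:**
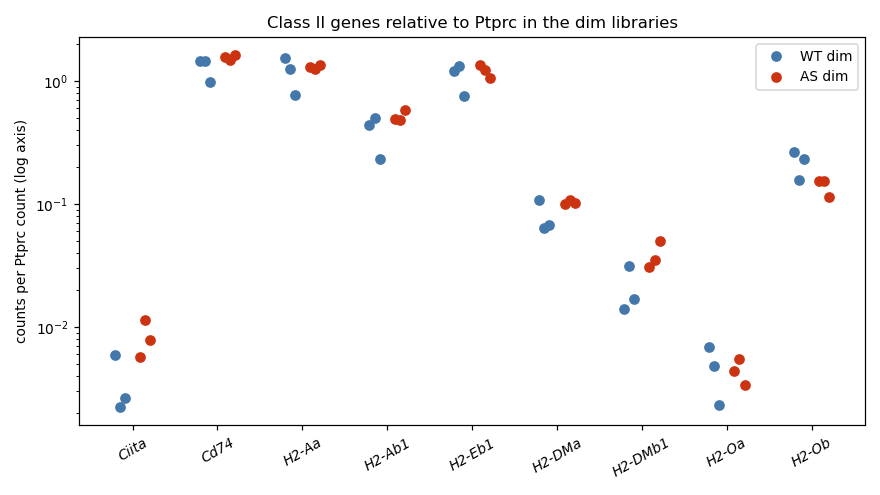
Counts of each of the 9 genes per count of Ptprc in the dim libraries, on a log axis, with 1 point for each WT (blue) and AS (red) library. The genotypes overlap for 7 genes, Cd74 lies slightly higher in AS, at 1.48 to 1.63 against 0.974 to 1.45, and H2-Ob slightly lower.

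The third comparison asked the same of the bright cells, where the class II genes rested on few counts. Ciita and H2-DMb1 fell under the filter on low counts and were not tested, and H2-Oa was absent from the table, which left 6 members. H2-Ab1 had 58, 58 and 49 counts in WT-bright and 161, 192 and 258 in AS-bright. The AS libraries lay well above the WT libraries, and the log2 fold change of AS over WT was 1.89 (SE 0.37), but the adjusted p was 0.0547. H2-Aa had 153, 86 and 47 counts in WT-bright and 365, 363 and 239 in AS-bright, without overlap, and a log2 fold change of 1.76 (SE 0.41, adjusted p = 0.0664).

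The remaining members of the bright cells showed smaller or less even differences. Cd74, with 138, 90 and 58 counts in WT-bright and 246, 278 and 173 in AS-bright, had a log2 fold change of 1.28 (SE 0.38, adjusted p = 0.108). H2-Eb1, with 216, 89 and 100 counts in WT-bright and 319, 259 and 412 in AS-bright, had one of 1.30 (SE 0.39, adjusted p = 0.108). H2-DMa, with 17, 20 and 17 counts in WT-bright and 30, 28 and 80 in AS-bright, had one of 1.36 (SE 0.59, adjusted p = 0.216), and here 1 AS library stood far above the other two. H2-Ob had 178, 119 and 71 counts in WT-bright and 89, 181 and 131 in AS-bright, with overlap, and a log2 fold change of 0.12 (SE 0.42, adjusted p = 0.899), whose sign changed when single libraries were left out.

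None of the 6 members tested passed in the bright cells, where 0.188% of all genes tested were higher and passed. By edgeR's quasi-likelihood test 5 of the 6 had an unadjusted p under 0.05, against 9.98% of all genes that were higher with such a p, and the libraries of the same 5 did not overlap, against 15.5% of all genes higher without overlap. DESeq2 called 4, where 451 of all genes were higher and passed, against 27 by the quasi-likelihood test. The likelihood ratio test of edgeR called 2, where 234 of all genes were. Leaving out WT-bright replicate 1 gave 3 members past the threshold, where 52 of all genes were higher and passed. Leaving out any other library gave 0 members. Of all genes 106 then passed without WT-bright replicate 2, 90 without AS-bright replicate 2 and 0 without WT-bright replicate 3 or AS-bright replicate 1 or 3. The pan-leukocyte sum was higher in AS-bright, at 138 to 167 CPM, than in WT-bright, at 72.4 to 116 CPM, while Ptprc overlapped with 65, 28 and 44 counts in WT-bright and 44, 124 and 38 in AS-bright. The B cell markers summed to 2.55 to 5.66 CPM in WT-bright and 3.45 to 6.66 CPM in AS-bright, and the macrophage and monocyte markers to 56.4 to 84.6 and 86.6 to 109 CPM. The podocyte markers summed to 971 to 1187 CPM in WT-bright and 1309 to 1494 CPM in AS-bright, without overlap, and the proximal tubule markers to 382 to 2410 and 46.8 to 434 CPM, with overlap. By edgeR's test none of these markers passed, and an unadjusted p under 0.05 was found for 4 of 6 podocyte, 8 of 10 proximal tubule, 5 of 14 endothelial, 2 of 6 pan-leukocyte and 2 of 5 macrophage and monocyte markers tested, against 21.8% of all genes. The median log2 fold change was 0.84 for the podocyte, -2.59 for the proximal tubule, 0.39 for the endothelial, 0.65 for the pan-leukocyte and 0.49 for the macrophage and monocyte markers. Their part in the class II values of the bright cells was not tested.

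The last comparison asked whether the difference between AS and WT was another in the bright than in the dim cells, by the interaction of genotype and subpopulation over all 12 libraries. None of the 8 members tested passed by edgeR's quasi-likelihood test, while 3.77% of all genes tested passed in either direction, and none passed by DESeq2. For H2-Aa the interaction was 0.98 on the log2 scale (SE 0.42, adjusted p = 0.225). H2-Ab1 gave 0.85 (SE 0.36, adjusted p = 0.229), and H2-Aa and H2-Ab1 were the 2 members of 8 with an unadjusted p under 0.05, which 18.5% of all genes tested had. Ciita and H2-DMb1 were in this fit through their dim counts, and their values, -1.28 (SE 1.08) for Ciita, rest on 0 to 16 bright counts. The median of all genes was 0.13 in this fit and shifted by -0.16 when library sizes alone were used.

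**Figure D4:**
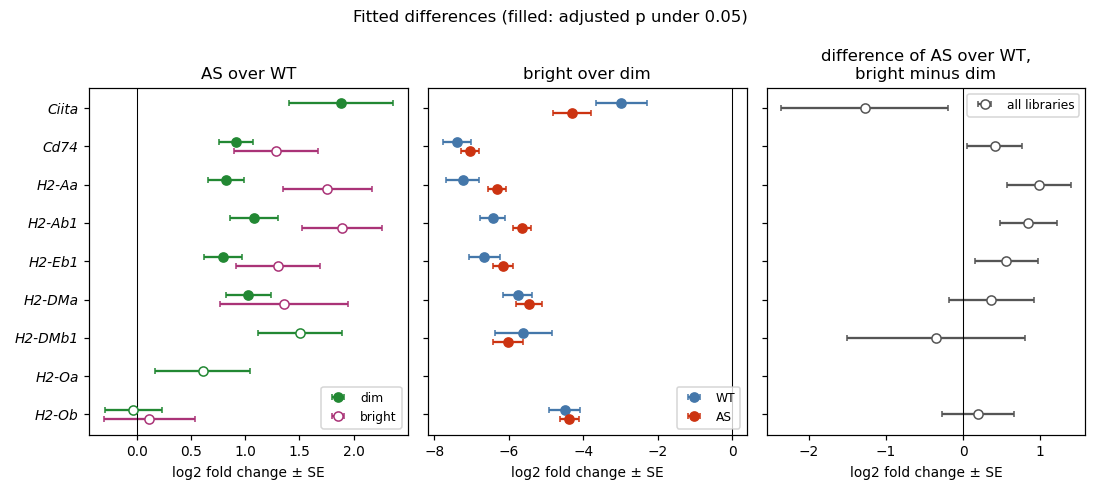
Log2 fold changes with their standard errors for the 9 genes, with AS over WT in dim (green) and bright (purple) cells on the left, bright over dim in WT (blue) and AS (red) mice in the middle, and the difference of AS over WT between bright and dim cells on the right. Filled points passed an adjusted p of 0.05, which 6 members did for AS over WT in the dim cells, none in the bright cells, and 8 in each genotype for bright over dim.

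The genes that act beside the class II molecules were read from lists. Among the other class II chains, H2-DMb2, the copy of H2-DMb1, had 154 to 216 CPM in WT-dim and 161 to 249 CPM in AS-dim, overlapping, with a log2 fold change of 0.23 (SE 0.23, adjusted p = 0.577). Its fitted log2 fold change of bright over dim was -7.69 (SE 0.58) in WT and -7.61 (SE 0.35) in AS. This is given as a description. H2-DMb2 had 3 to 30 counts in WT-bright and 7 to 21 in AS-bright, so it entered these tests through its dim counts and had to be lower. The I-E alpha chain pseudogene H2-Ea-ps had no counts in WT-dim and 7 to 12 counts in AS-dim.

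None of the 7 genes of the enhanceosome, the complex on which Ciita docks, passed edgeR's test for AS over WT in either subpopulation, while 1 in the dim and 3 in the bright cells had an unadjusted p under 0.05, and DESeq2 called 0 and 1. Over all genes tested such a p was found for 26.3% in the dim and 21.8% in the bright cells, and the counts of the interferon gamma and costimulatory lists are to be read against the same shares. Rfx5, a subunit of RFX, had the highest value in the dim cells, a log2 fold change of 1.55 (SE 0.55, adjusted p = 0.105), at 0.179 to 0.515 CPM in WT and 0.875 to 1.55 CPM in AS. Rfxap, another subunit, had the lowest in the bright cells, at -1.16 (SE 0.27, adjusted p = 0.0656). For bright over dim, none of the 7 passed edgeR's test in WT, where 2 had an unadjusted p under 0.05, against 37.4% of all genes, and DESeq2 called 0, and 1 of the 7 passed in AS, where 55.1% of all genes passed in either direction. Their median log2 fold change of bright over dim was 0.64 in WT and -0.062 in AS.

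The interferon gamma pathway is known to induce Ciita through the kinases Jak1 and Jak2 and the factors Irf1 and Usf1, among others. None of the 7 genes of it that were read here passed edgeR's test for AS over WT in the dim cells, where 4 had an unadjusted p under 0.05 and DESeq2 called 2, with the highest values for Usf1, at 1.71 (SE 0.52, adjusted p = 0.0787), and Jak2, at 0.75 (SE 0.19, adjusted p = 0.0524). None of the 6 tested passed in the bright cells, where 2 had an unadjusted p under 0.05, DESeq2 called 1 and the receptor chain Ifngr2 had the highest value at 1.08 (SE 0.23, adjusted p = 0.0574). Between the subpopulations the pathway was split. Irf1 was higher in the bright cells, by 2.53 (SE 0.22) in WT and 2.84 (SE 0.33) in AS, and the receptor chain Ifngr1 was lower, by -2.98 (SE 0.24) and -3.30 (SE 0.18), each of them past the threshold. Of the 6 genes tested 1 was higher and 3 were lower in WT-bright, where 13.8% of all genes were higher and 11.5% lower, and 1 was higher and 4 were lower in AS-bright, where 28.6% were higher and 26.5% lower.

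Of the 5 lists of genes that act beside the members, that of class II processing and turnover was the one with genes that passed for AS over WT in the dim cells. Of 9 genes tested in the dim cells 3 were higher and 1 was lower, against 2.21% and 6.42% of all genes tested. Ctss, the protease that trims the invariant chain in professional presenting cells, stood at 599 to 806 CPM in WT-dim and 1147 to 1763 CPM in AS-dim, a log2 fold change of 0.92 (SE 0.22, adjusted p = 0.0398). Ifi30, the lysosomal thiol reductase, had 0.89 (SE 0.22, adjusted p = 0.046), and March1, the ligase that sends class II molecules to degradation, 1.26 (SE 0.30, adjusted p = 0.0411). Ctsl, the protease known for the same trimming in thymic epithelium and abundant in kidney, was lower, at 258 to 395 CPM in WT-dim and 92.9 to 134 CPM in AS-dim, by -1.38 (SE 0.24, adjusted p = 0.0219). Under the version 3 fit none of the 3 higher genes passed and Ctsl did.

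The subpopulations differed in the same proteases. Ctss was lower in the bright cells, by -7.00 (SE 0.39) in WT and -7.65 (SE 0.31) in AS, and Ctsl was higher, by 1.26 (SE 0.26) in WT and 2.26 (SE 0.21) in AS. The interaction passed for 2 of the 9 genes of this list. The difference of AS over WT was lower in the bright cells for Ifi30, by -2.41 (SE 0.44, adjusted p = 0.0104), and higher for Ctsd, a further endosomal protease, by 1.23 (SE 0.28, adjusted p = 0.0287, or 0.0682 with library sizes alone).

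Among the costimulatory genes, which give a T cell its second signal, none passed edgeR's test for AS over WT. An unadjusted p under 0.05 was found for 2 of 6 in the dim and 3 of 4 in the bright cells, and DESeq2 called 0 and 2. Cd80 had the highest value in the dim cells, at 0.95 (SE 0.32, adjusted p = 0.104), and Cd274, the inhibitory ligand PD-L1, the highest in the bright cells, at 1.64 (SE 0.48, adjusted p = 0.105). For bright over dim, 0 of 5 tested were higher and 3 lower past the threshold in WT, where 13.8% and 11.5% of all genes were. In AS 1 was higher and 2 were lower, against 28.6% and 26.5%. Cd40 was the higher one, by 1.05 (SE 0.27). Cd86 had -8.04 (SE 0.35) in WT and -7.29 (SE 0.30) in AS. Cd86 in WT, with 9 to 12 bright counts, and Cd80, with 0 to 15, entered through their dim counts and had to be lower.

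The genes with the most similar pattern were ranked by Pearson's r of log2 CPM with the mean of the members over the 6 libraries of a subpopulation. The r is a description, since the 6 libraries share 2 genotypes and any gene that separates them scores high. In the dim cells, over 12856 genes, these were St3gal4, Set, Rrbp1, Ints6l and Larp1, with r from 0.998 to 0.995. St3gal4, a sialyltransferase, stood at 34.2, 35.2 and 34.3 CPM in WT and 62.4, 65.7 and 71.0 CPM in AS. In the bright cells, over 12198 genes, they were Cd83, Myrip, Lrrc42, Pspc1 and Nrp2, with r from 0.994 to 0.983.

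Cd83, which heads the bright ranking, is also on the list of class II turnover, as its product is known to shield class II molecules from March1. It stood at 19.9, 14.0 and 9.36 CPM in WT-bright and 37.4, 38.7 and 40.4 CPM in AS-bright, without overlap, and its log2 fold change of AS over WT was 1.36 (SE 0.30, adjusted p = 0.0605). In the dim cells it was abundant, at 3298 ± 369 CPM in WT and 4196 ± 521 CPM in AS. It was lower in the bright cells by -7.75 (SE 0.39) in WT and -6.74 (SE 0.23) in AS. Among the members themselves the r with the member mean was 0.975 for Cd74, 0.965 for H2-Aa and 0.924 for Ciita in the dim cells, and -0.036 for H2-Ob, which was 0.488 in the bright cells.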

How the data were processed

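RNA of sorted dim and bright tdT cells from 3 WT and 3 AS mice was made into poly-A selected stranded libraries. According to the study's methods and the labels, the authors aligned paired reads with STAR 2.6.0c to GRCm38.p5 with Gencode M16 and took its gene counts. The deposited counts, whole numbers per gene and library, were used here as they are. The 12 deposited columns of RPKM, and the authors' own log2 fold changes, test statistics and p-values, were not used. ERCC spike-ins, 0.0286 to 0.282% of the counts, were left out.

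Each comparison was tested with edgeR 4.0.16 in R 4.3.3 (filterByExpr, TMM, quasi-likelihood test, Benjamini-Hochberg adjustment, threshold 0.05), each subpopulation on its own table and bright over dim and the interaction on the 15768 genes listed in both. The version 4 form of the quasi-likelihood fit was taken to follow earlier processing of these data, after the calls of both forms had been seen. It is not the default of this edgeR version, it made more calls than the version 3 form and it made more false calls on simulated data, so the version 3 calls are given beside those that changed. Standard errors are the log2 fold change divided by the square root of F. CPM used TMM factors over all 12 libraries. Log2 CPM used a prior count of 2, and similar genes an average log2 CPM above 1. Alternatives were RLE, library sizes alone, DESeq2 1.42.0, the likelihood ratio test, no filter on low counts, the replicate block, all 12 libraries in one fit, 2 marker covariates, each library left out and, added after seeing the data, the version 3 fit.

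The members, lists and tests were chosen with earlier results of these data known. Named genes were the 9 members, listed genes that passed or had the 2 highest or 2 lowest differences, the 5 most similar genes, and Ptprc, Col4a5 and the marker sums. A listed gene of the interferon gamma pathway is not reported here, and the counts of that list leave it out. Dim and bright libraries with the same number came from 1 mouse by the labels, and their deviations from the group means correlated at 0.0798 to 0.385. The same numbers in WT and AS name different mice. Mice are the replicates, and no pair of replicates was alike within sampling noise. Gene positions are from Gencode M21 on GRCm38, and promoter windows from RefSeq on GRCm38.p6. Depth limits the bright values, where Ciita had at most 13 counts.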

Additional observations from a re-analysis of the deposited data

Results flagged for a closer look

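Among the members and the genes of the 5 lists, 2 differed between the dim and the bright cells in their difference of AS over WT, by the interaction of genotype and subpopulation in edgeR's quasi-likelihood fit. Cell type markers such as Tek are not in this count. Of these, 10 of 14 endothelial, 5 of 6 podocyte and 1 of 10 proximal tubule markers were higher and passed, against 2.96% of all genes tested. For Ifi30, the lysosomal thiol reductase, the interaction was -2.41 (SE 0.44, adjusted p = 0.0104). It had 81.8, 97.1 and 112 CPM in WT-dim and 148, 175 and 223 CPM in AS-dim, but 11.1, 4.97 and 12.1 CPM in WT-bright and 3.33, 3.59 and 3.02 CPM in AS-bright, so that AS lay above WT in the dim cells and below it in the bright cells, without overlap in either. The log2 fold change was 0.89 (SE 0.22, adjusted p = 0.046) in the dim and -1.56 (SE 0.45, adjusted p = 0.0996) in the bright cells. For Ctsd, an endosomal protease, the interaction was 1.23 (SE 0.28, adjusted p = 0.0287), with a log2 fold change of AS over WT of -0.66 (SE 0.19, adjusted p = 0.067) in the dim and 0.53 (SE 0.21, adjusted p = 0.18) in the bright cells. The Ctsd interaction lost the threshold with library sizes alone, under the likelihood ratio test and without 7 of the 12 libraries in turn, while the Ifi30 interaction passed under every alternative tried. None of the class II genes passed this test, where 2 of 8 had an unadjusted p under 0.05, against 18.5% of all genes tested, and DESeq2 called 0.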

How the results depend on the processing

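The 6 members past the count filter in the bright libraries were lower there and passed in both genotypes under every alternative run. With Ciita and H2-DMb1, which were tested through their dim counts alone, the replicate block gave 8 and 8 and changed no call. Of the 9 members, 6 passed for AS over WT in the dim cells. The likelihood ratio test gave 2, the replicate block 0 (WT and AS share only a number), the proximal tubule covariate 0, the pan-leukocyte covariate 0, and leaving out 1 library 0 to 5. In the bright cells 0 passed, and DESeq2 gave 4, the likelihood ratio test 2, all 12 libraries in one fit 3, the replicate block 0, and leaving out 1 library 0 to 3. No member passed the interaction under any alternative, the block included, where leaving out 1 library gave 0 to 0. All genes higher in AS-dim fell from 324 to 130 and those lower from 939 to 452 under the version 3 fit, and in the bright cells from 27 and 38 to 0 and 0, while DESeq2 gave 451 and 666. With the covariates the 6 libraries leave few degrees of freedom, and 1 and 3 genes of all tested were higher in AS-dim. The likelihood ratio test gave 354 genes higher in AS-dim and 234 in AS-bright. The replicate block gave 63 and 7, and all 12 libraries in one fit 536 and 68. Leaving out 1 library gave 0 to 452 genes higher in AS-dim and 0 to 106 in AS-bright.

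Signs changed for members that had not passed. H2-Ob for AS over WT in the dim cells, -0.03, was 0.063 with library sizes alone, 0.016 with the replicate block, 0.00061 with all 12 libraries, 0.12 with the proximal tubule covariate, and -0.29 to 0.24 with 1 library left out. In the bright cells it was -0.066 with the pan-leukocyte covariate and -0.19 to 0.48 with 1 library left out. H2-DMb2 in the dim cells was -0.11 with the pan-leukocyte covariate. For the interaction, leaving out 1 library gave -0.16 to 0.51 for H2-Ob, -0.33 to 0.59 for H2-DMa and -0.93 to 0.20 for H2-DMb1. The causes were not tested. The 5 most similar genes of each subpopulation were the same 5 with a prior count of 0.5.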
